A study of Mus musculus with 12 samples.

Results

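The collagen chains and the lysyl oxidases that cross-link them were followed in breast tumours of 12 mice. The set was taken from the count table as every protein-coding gene whose symbol reads Col, a number, a, a number, together with Lox and Loxl1 to Loxl4. It holds 49 of the 55487 genes in the table, 44 of them collagen chains and 5 lysyl oxidases, and the choice used no measured value. All mice were C57BL/6J and carried MMTV-PyMT, a transgene that expresses polyoma middle T antigen from a viral promoter active in mammary epithelial cells, so the transgene marks the epithelium and not the stroma. One group of 6 mice had wild-type Bad (PyMT-Bad+/+, Bad_WT below) and the other group of 6 carried Bad3SA, a form of Bad whose regulatory serines are replaced so that the protein cannot be phosphorylated there. The labels do not give the zygosity of Bad3SA or say which cells of a tumour carry it. Each library is polyadenylated RNA of 1 tumour from 1 mouse, harvested at an end point of 21.3 to 27.1 weeks in Bad_WT (mean 24.0 ± 1.93, SD, n = 6) and of 22.9 to 31.1 weeks in Bad3SA (27.5 ± 2.85, SD, n = 6), although the series text calls the mice age matched. The study asks how the RNA of these tumours differs when phosphorylation of BAD is blocked.

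A collagen molecule is a triple helix of chains, and the gene family is grouped by the structure that the molecules build. Fibrillar collagens such as types I, III, V and XI form the banded fibrils of connective tissue, type IV forms the network of basement membranes, type VI forms beaded filaments, and the FACIT collagens (fibril-associated collagens with interrupted triple helices) sit on the surface of fibrils. Lysyl oxidases are secreted copper enzymes that oxidise lysines of collagen and elastin, after which the chains cross-link. In mammary tumours, fibroblasts are the main known source of types I and III, while epithelial and endothelial cells also make type IV.

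Depth ran from 58096172 counts in Bad3SA 5 to 83296370 in Bad_WT 2, and the labels name no batch. The mammary luminal markers (7 of 7 tested, among them Epcam, Krt8 and Krt18) summed to between 5041 and 6924 CPM (counts scaled to library size with TMM) over the 12 tumours. Other tissue differed between tumours. Bad_WT 4 had the highest sums of skeletal muscle markers (1070 CPM, against 8.92 to 145 in the other tumours) and of squamous keratinocyte markers (414 CPM, against 8.30 to 185), and Bad3SA 5 the highest sum of adipocyte markers (326 CPM, against 2.83 to 91.9). Values for these tumours are given beside the results they touch. In whole tumours, fewer cells of a type and less RNA per cell cannot be told apart.

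Of the 49 genes, 46 had enough counts to be tested, and 1 passed. Col11a1, a chain of the minor fibrillar collagen XI, was lower in Bad3SA. In the fit over all 18019 genes tested (edgeR quasi-likelihood, adjusted p under 0.05), 1.38% of genes were called in either direction and 0.76% were called lower in Bad3SA, so 1 call among 46 is close to the background. No member had CPM values that kept the genotypes apart, a property of 2.23% of all genes. Col19a1, Col22a1 and Col6a5, the members left out of the test, had 5, 35 and 25 counts over the Bad_WT tumours and 32, 22 and 55 over the Bad3SA tumours. Taken over the tested members, 26 of the 46 estimates were positive (higher in Bad3SA) and 20 negative, with a median log2 fold change of 0.14 against 0.00 for all genes. That median was -0.03 without Bad_WT 6 and -0.09 without Bad3SA 2. An unadjusted p under 0.05 was reached by 8 of the 46 members (Col11a1, Col26a1, Loxl4, Col13a1, Col6a4, Col23a1, Col8a1 and Col20a1) and by 16.2% of all genes.

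**Figure D1:**
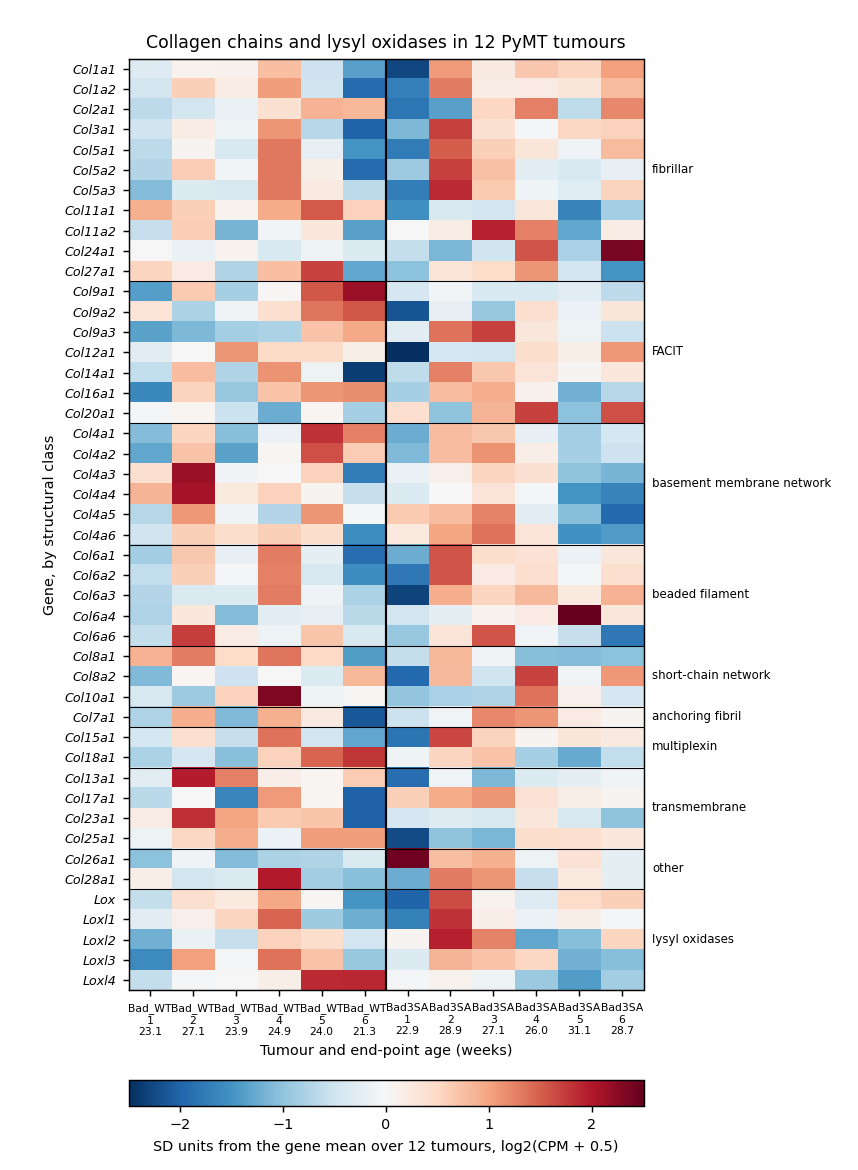
Level of the 46 tested genes (rows, grouped by structural class) in 12 tumours (columns, with the end-point age in weeks), as log2(CPM + 0.5) in SD units from each gene's mean. The vertical line divides 6 Bad_WT from 6 Bad3SA tumours. Bad_WT 6 was the lowest tumour for 12 of the 46 genes and the highest for 5, and Bad3SA 1 the lowest for 17 and the highest for 1.

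Col11a1 (ENSMUSG00000027966, GRCm38 chromosome 3, 114030540 to 114220718, plus strand, no exon shared with another gene) had 221, 195, 158, 224, 288 and 194 CPM in Bad_WT 1 to 6. In Bad3SA 1 to 6 it had 81.0, 130, 127, 172, 76.4 and 107 CPM. The groups overlapped only through Bad3SA 4, which was above Bad_WT 3. The means were 213 ± 43.8 and 116 ± 35.7 CPM (SD, n = 6 each), or -0.88 as a log2 fold change (SE 0.20, edgeR adjusted p = 0.0489). The call lies at the threshold. Leaving out each tumour in turn gave adjusted p values from 0.0283 to 0.119, and only the fit without Bad3SA 4 passed. DESeq2 gave an adjusted p of 0.00332 and limma voom with quality weights 0.0248, and those tools called 4.81% and 3.21% of all genes. With end-point age in the model, which called 0.405% of all genes, the Col11a1 difference kept its size (-0.83, SE 0.27) but not its call (edgeR adjusted p = 0.366). The authors' deposited table lists Col11a1 at 0.83, with Bad_WT over Bad3SA as its direction, and an adjusted p of 0.00515.

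Sequence upstream of 5 members is shown because their levels carry the results. Col11a1 is the called chain, Col1a2 and Col3a1 each moved with Col1a1 across tumours, and Col4a1 and Col4a2 are neighbours that moved together. Each window runs from 250 bases before to 50 after the RefSeq transcript start (GRCm38.p6), is printed 5′ to 3′ along the gene, and was found for 36 of the 49 members. Col1a1 has no entry. In the first 3 windows, capitals mark matches to any of the following motifs, searched on both strands: TATAAA for the core promoter box, CCAAT for the box of that name, GGGCGG for the box bound by Sp1 and ACAAAG for sites of SOX proteins. A match is a string of letters and not a measured binding site.
Col11a1: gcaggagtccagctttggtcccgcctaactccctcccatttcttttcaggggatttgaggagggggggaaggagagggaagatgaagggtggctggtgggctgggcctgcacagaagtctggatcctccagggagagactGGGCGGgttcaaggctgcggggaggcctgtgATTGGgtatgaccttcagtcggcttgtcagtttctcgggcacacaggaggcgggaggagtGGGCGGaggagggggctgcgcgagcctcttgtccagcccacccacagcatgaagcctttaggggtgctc
Col1a2: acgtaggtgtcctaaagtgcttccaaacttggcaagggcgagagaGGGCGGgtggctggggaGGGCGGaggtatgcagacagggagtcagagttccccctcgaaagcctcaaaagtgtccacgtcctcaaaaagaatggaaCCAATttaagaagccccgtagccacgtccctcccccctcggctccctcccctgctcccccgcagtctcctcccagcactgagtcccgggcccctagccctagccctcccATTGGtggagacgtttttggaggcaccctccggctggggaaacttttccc
Col3a1: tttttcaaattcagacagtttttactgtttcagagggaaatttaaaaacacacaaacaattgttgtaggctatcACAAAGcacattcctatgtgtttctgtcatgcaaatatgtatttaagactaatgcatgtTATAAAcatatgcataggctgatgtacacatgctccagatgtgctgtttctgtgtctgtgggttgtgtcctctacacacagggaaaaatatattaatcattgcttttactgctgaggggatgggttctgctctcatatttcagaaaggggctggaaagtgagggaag

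The Col11a1 window (chr3:114030290-114030589, plus strand, 62.3% G and C) held GGGCGG at bases 141 to 146 and at 232 to 237, counted from its first base, and CCAAT on the other strand at 172 to 176. The Col1a2 window (chr6:4505368-4505667, plus strand, 61.0% G and C) also held GGGCGG more than once, at 46 to 51 and 63 to 68, with CCAAT at 142 to 146 and, on the other strand, at 251 to 255. The Col3a1 window (chr1:45311288-45311587, plus strand) was poorer in G and C, at 37.7%, and held no GGGCGG. It had TATAAA at 134 to 139 (first base at -117 from the transcript start) and ACAAAG at 75 to 80. Over the 39 windows of 36 members, GGGCGG was in 61.5%, against 35.7% of all 32851 windows in the table. The windows of Col4a1 and Col4a2 overlap, so not all windows are independent. The G and C content of all windows was not measured. The other motifs were in a smaller share of members' windows than of all windows, CCAAT at 33.3% against 37.4%, TATAAA at 12.8% against 13.6% and ACAAAG at 12.8% against 18.7%.

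Col4a1 and Col4a2 start head to head on chromosome 8, with transcript starts 21 bases apart, so that their windows share 78 bases, chr8:11312777-11312854, given in capitals.
Col4a1: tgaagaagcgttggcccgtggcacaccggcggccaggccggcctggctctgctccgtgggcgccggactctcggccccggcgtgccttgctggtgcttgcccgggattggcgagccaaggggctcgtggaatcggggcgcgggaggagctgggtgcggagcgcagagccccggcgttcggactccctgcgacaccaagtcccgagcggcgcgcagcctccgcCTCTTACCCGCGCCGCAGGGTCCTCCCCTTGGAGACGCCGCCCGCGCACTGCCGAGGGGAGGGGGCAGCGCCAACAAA
Col4a2: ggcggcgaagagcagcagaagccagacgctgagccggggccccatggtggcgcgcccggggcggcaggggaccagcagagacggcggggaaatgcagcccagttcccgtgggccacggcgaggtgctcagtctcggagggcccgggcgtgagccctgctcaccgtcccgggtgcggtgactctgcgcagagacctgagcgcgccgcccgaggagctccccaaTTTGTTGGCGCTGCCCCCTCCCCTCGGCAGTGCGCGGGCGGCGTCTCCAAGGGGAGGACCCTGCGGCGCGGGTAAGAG
The Col4a1 window is chr8:11312777-11313076 on the minus strand and the Col4a2 window chr8:11312555-11312854 on the plus strand. Both were rich in G and C (74.0% and 73.7%), and each held a CCAAT and a GGGCGG match and no match to TATAAA or ACAAAG. Col4a4 and Col4a3 are also head to head, 71 bases apart on chromosome 1, as are Col4a6 and Col4a5, 1308 bases apart on the X chromosome. Col3a1 and Col5a2 lie tail to tail 24.6 kb apart on chromosome 1.

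Compared per kilobase of exon, as the mean over 12 tumours, the most abundant member was Col4a1 at 79.3 CPM per kb, a main chain of basement membrane collagen. Col9a2 followed at 77.7 CPM per kb and Col9a1 at 60.0, and Col9a3 stood seventh at 44.2. These are the chains of the FACIT collagen IX, best known from cartilage. The chief fibril chains of connective tissue stood at 50.4 (Col1a1), 46.5 (Col3a1) and 29.8 CPM per kb (Col1a2). The ranges over tumours of these genes overlapped, so the order of neighbours is not fixed. Collagen II, the chain that collagen IX decorates in cartilage, was at 1.08 CPM per kb (Col2a1), and Col11a1 was at 12.9. Of the cartilage and bone markers 5 of 8 were tested. All 5 had positive estimates, as had 50.45% of all genes, and none passed in edgeR (smallest adjusted p = 0.111). With age in the model 4 of the 5 were positive, and Sox9 was at -0.06. Sox9 was at 146 CPM in Bad_WT and 161 in Bad3SA, Runx2 at 10.03 and 12.8, and Chad, a matrix protein gene of cartilage, at 5.19 and 11.5. The cartilage proteoglycan gene Acan was at 0.605 and 1.04 CPM and the bone protein gene Bglap at 0.221 and 0.764. Matn1, Ibsp and Sp7 were not tested. Matn1 had 1 count over all tumours. Ibsp and Sp7 had 18 and 73 counts over the Bad_WT tumours and 13 and 61 over the Bad3SA tumours. DESeq2 called Chad (log2 fold change 1.15, adjusted p = 0.0142) and Bglap (1.79, adjusted p = 0.0364), and limma voom called Bglap (2.21, adjusted p = 0.0337) and not Chad (0.0626). Which cells made the collagen IX RNA was not tested. Col9a1, Col9a3 and Col2a1 are named here after their values were seen.

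**Figure D2:**
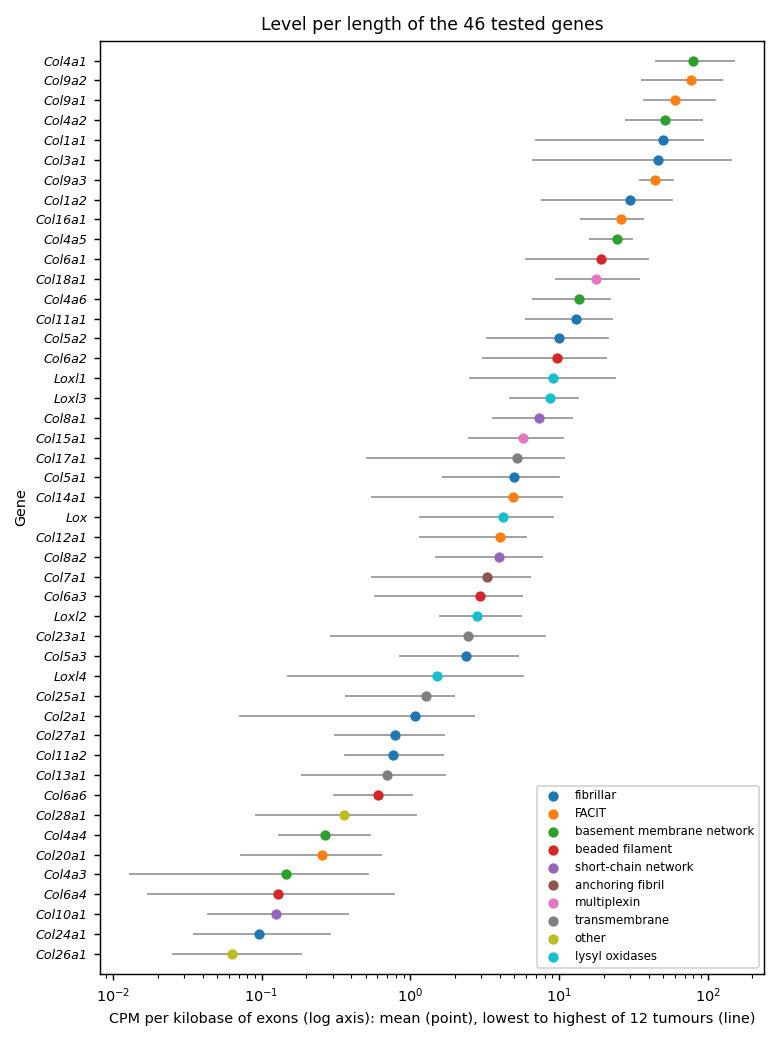
Mean CPM per kilobase of exons over 12 tumours (points, coloured by structural class, logarithmic axis) with the lowest and highest tumour (lines) for the 46 tested genes. Levels run from 0.0634 for Col26a1 to 79.3 CPM per kb for Col4a1, and the lines for Col9a3 and Col4a5 are the shortest.

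The spread between tumours also differed between genes. The ratio of the highest to the lowest tumour was 1.68 for Col9a3 and 1.92 for Col4a5, but 13.3 for Col1a1, 21.3 for Col3a1, 37.6 for Col2a1, 38.1 for Loxl4, 39.5 for Col4a3 and 45.2 for Col6a4. Col1a1, Col1a2 and Col3a1 together made up 6.30% of all member counts in Bad_WT 6 and 40.1% in Bad3SA 2. The members as a whole took 0.304% to 0.560% of a library's counts in Bad_WT and 0.228% to 0.676% in Bad3SA. Bad3SA 1 was the lowest tumour for 17 members and Bad_WT 6 for 12. These were the youngest mouse of each genotype, at 22.9 and 21.3 weeks. They also had the lowest summed CPM of the fibroblast markers in their genotype, 110 and 75.4.

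Among the fibrillar chains, 9 of 11 estimates were positive and 2 negative, with a median log2 fold change of 0.32, and Col11a1 was the only call. Col1a1 and Col1a2, the chains of type I collagen, overlapped broadly between genotypes. Col1a1 (GRCm38 chromosome 11, 94936224 to 94953042) had 209, 285, 293, 478, 181 and 93.6 CPM in Bad_WT 1 to 6 and 46.0, 612, 320, 450, 407 and 596 CPM in Bad3SA 1 to 6. Every Bad3SA tumour but the first was above the Bad_WT median of 247 CPM, and the first was the lowest of all 12. This gave 0.66 as the log2 fold change (SE 0.49, edgeR adjusted p = 0.503). Col1a2 had a median of 299 CPM in Bad_WT (95.6 to 610) and 374 CPM in Bad3SA (109 to 715), at 0.29 (SE 0.43, adjusted p = 0.749). Col3a1, the chain of type III collagen that shares fibrils with type I, had a median of 269 CPM in Bad_WT (65.6 to 853) and 501 CPM in Bad3SA (137 to 1398), at 0.74 (SE 0.57, adjusted p = 0.517). The highest tumours, Bad_WT 4 and Bad3SA 2, also had the highest fibroblast marker sums, 589 and 581 CPM. Col11a2, which pairs with Col11a1 in type XI collagen, had the opposite sign from Col11a1, at 0.58 (SE 0.34, adjusted p = 0.415), with medians of 4.16 CPM in Bad_WT and 5.24 in Bad3SA. The other 6 fibrillar chains lay between -0.32 (Col27a1) and 0.55 (Col24a1), and none passed.

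**Figure D3:**
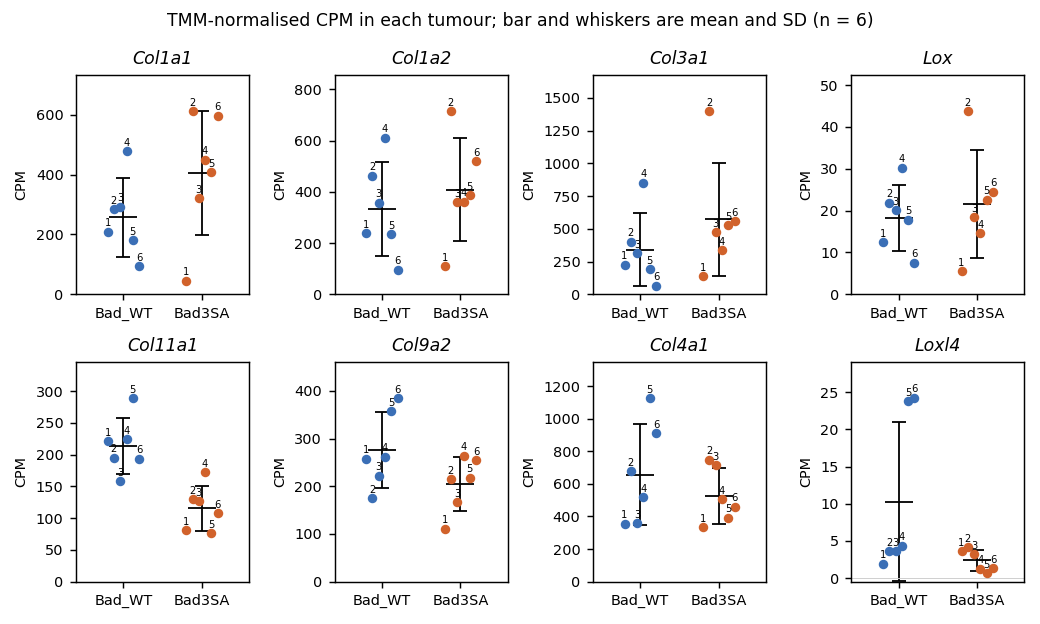
TMM-normalised CPM of 8 members in each of 6 Bad_WT (blue) and 6 Bad3SA (orange) tumours, numbered as in the sample titles, with the mean (bar) and SD (whiskers). The Col11a1 groups overlap only through Bad3SA 4 (172 CPM), Col1a1 runs from 46.0 CPM in Bad3SA 1 to 612 in Bad3SA 2, and Loxl4 is above 20 CPM only in Bad_WT 5 and 6.

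The basement membrane chains had 5 negative estimates of 6 and a median of -0.22, with no call. Col4a1 had a median of 598 CPM in Bad_WT (356 to 1125) and 484 CPM in Bad3SA (335 to 748), at -0.32 (SE 0.30, edgeR adjusted p = 0.601). Its highest values were in Bad_WT 5 and 6, at 1125 and 911 CPM, and without these tumours the estimate was 0.14. Col4a2, its partner, had a median of 365 CPM in Bad_WT (186 to 601) and 299 CPM in Bad3SA (204 to 494), at -0.12 (SE 0.31, adjusted p = 0.859), and 0.23 without Bad_WT 5 and 6. Col4a3 and Col4a4, chains of a network best known from the kidney, were scarce. Col4a4 had 2.16 to 5.64 CPM in Bad_WT and 1.38 to 3.02 in Bad3SA, at -0.59 (SE 0.28, adjusted p = 0.313), and Col4a3 was at -0.76 (SE 0.63, adjusted p = 0.552). Bad_WT 2 was highest for both, at 5.16 CPM of Col4a3 and 5.64 of Col4a4.

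In the beaded filament class, 4 of 5 tested estimates were positive and the median was 0.27, again with no call. Col6a1, Col6a2 and Col6a3, the chains of the common type VI heterotrimer, had log2 fold changes of 0.27 (SE 0.40), 0.23 (SE 0.42) and 0.40 (SE 0.43), with edgeR adjusted p values of 0.748, 0.797 and 0.648. Median levels were 65.4 against 88.8 CPM for Col6a1, 62.8 against 84.5 for Col6a2 and 24.5 against 46.5 for Col6a3, Bad_WT against Bad3SA. Without Bad3SA 2 the estimates for Col6a1 and Col6a2 were -0.02 and -0.08. Col6a4 had 0.146 to 0.970 CPM in Bad_WT and 0.447 to 6.59 CPM in Bad3SA, at 1.83 (SE 0.70, adjusted p = 0.23). Its top value came from Bad3SA 5, and the next Bad3SA tumour had 0.974 CPM. Without Bad3SA 5 the estimate was 0.62, and Bad3SA 5 was also the tumour with the highest adipocyte markers. The part of adipose tissue in this value was not tested.

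The FACIT collagens were tested for 7 of 9 genes, 3 with positive and 4 with negative estimates, at a median of -0.19 and with no call. Col9a2 (GRCm38 chromosome 4, 121039385 to 121055322) had a median of 260 CPM in Bad_WT (175 to 384) and 216 CPM in Bad3SA (111 to 264), at -0.43 (SE 0.23, edgeR adjusted p = 0.363). Col9a1 was nearly level within Bad3SA, at 259 ± 15.6 CPM, and spread widely within Bad_WT, at 349 ± 145 CPM (SD, n = 6 each). Bad_WT 5 and 6 were the highest tumours for Col9a1, at 469 and 564 CPM, and for Col9a2, at 358 and 384 CPM. Col20a1, a FACIT chain of less well-known role, had the smallest p of the class, with 0.372 to 1.15 CPM in Bad_WT and 0.472 to 3.25 in Bad3SA, at 1.08 (SE 0.50, adjusted p = 0.305). Its 25 to 219 counts per tumour make it one of the scarcer members.

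The short-chain network collagens had 1 positive and 2 negative estimates. Col8a1, a chain of the type VIII collagen of vessel walls and of Descemet's membrane in the eye, had a median of 71.7 CPM in Bad_WT (28.3 to 96.0) and 36.9 CPM in Bad3SA (32.4 to 76.0), at -0.68 (SE 0.28, edgeR adjusted p = 0.269). The other chain of that collagen, Col8a2, was at 0.36 (SE 0.33, adjusted p = 0.592), with medians of 15.2 and 19.6 CPM. Endothelial markers (7 of 7 tested) summed to 108 to 213 CPM in Bad_WT and 103 to 218 in Bad3SA. Bad_WT 6 stood apart from its group for Col8a1, at 28.3 CPM against 64.6 in the next tumour, and Bad3SA 2 was the highest of the other group. No fit that left out 1 tumour called the gene (-0.90 to -0.56, adjusted p 0.104 to 0.454).

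Of the collagens that anchor epithelium to its stroma, Col7a1, which forms the anchoring fibrils under stratified epithelium, had 5.65 to 53.4 CPM in Bad_WT and 18.5 to 66.1 in Bad3SA, at 0.44 (SE 0.50, edgeR adjusted p = 0.668). Col17a1, the transmembrane collagen of hemidesmosomes, had 3.05 to 63.3 CPM in Bad_WT and 24.7 to 65.2 in Bad3SA, at 0.92 (SE 0.59, adjusted p = 0.442). Bad_WT 4, the tumour with the most squamous and myoepithelial marker RNA, held the top Bad_WT value of Col17a1, and without it the estimate was 1.63 (the highest of the 12 fits that left out 1 tumour, none of which passed). The other 3 transmembrane collagens all had negative estimates. Col23a1 had a median of 18.3 CPM in Bad_WT (1.68 to 46.1) and 7.49 in Bad3SA (4.47 to 13.0), at -1.33 (SE 0.52, adjusted p = 0.242). Bad_WT 6 was the lowest tumour of all, and without it Col23a1 was at -1.58 and passed (adjusted p = 0.0380). It passed in none of the other 11 such fits, and without Bad_WT 2 it was at -0.89 (adjusted p = 0.415). Col13a1, a transmembrane collagen known from the neuromuscular junction, had 2.42 to 7.83 CPM in Bad_WT and 0.866 to 2.74 in Bad3SA, at -1.03 (SE 0.35, adjusted p = 0.184). With age in the model it was at -1.66 (SE 0.37, adjusted p = 0.0948).

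Of the multiplexins, basement membrane zone collagens with attached glycosaminoglycan chains, Col18a1, the precursor of endostatin, had a median of 122 CPM in Bad_WT (74.0 to 244) and 99.3 in Bad3SA (67.2 to 155). Its estimate was -0.41 (SE 0.31, edgeR adjusted p = 0.520), and 0.10 without Bad_WT 5 and 6, which again were the highest tumours, at 211 and 244 CPM. Col15a1 was at 0.23 (SE 0.31, adjusted p = 0.733), with medians of 28.0 and 37.6 CPM. Among the chains outside these classes, Col26a1 had 0.207 to 0.450 CPM in Bad_WT and 0.403 to 1.50 in Bad3SA, at 1.29 (SE 0.36, adjusted p = 0.110). It is the least abundant tested member per kilobase, with 135 counts over the Bad_WT tumours and 310 over the Bad3SA tumours, and DESeq2 (adjusted p = 0.0248) and limma voom (0.0457) called it. The authors' deposited table also calls it, with an adjusted p of 0.0167. Col28a1 was at 0.08 (SE 0.62, adjusted p = 0.958), and its sign turned in 6 of the 12 fits that left out 1 tumour.

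The lysyl oxidases had 3 positive and 2 negative estimates and no call. Lox, the founding member, had a median of 18.9 CPM in Bad_WT (7.53 to 30.3) and 20.5 in Bad3SA (5.52 to 43.8), at 0.24 (SE 0.41, edgeR adjusted p = 0.793). Loxl1, whose product is best known for elastic fibre renewal, had medians of 24.0 and 26.1 CPM, at 0.15 (SE 0.49, adjusted p = 0.897). Bad3SA 2 had the top value of both, and their estimates without it were -0.10 and -0.36. Loxl2 was at 0.36 (SE 0.30, adjusted p = 0.541), with medians of 12.6 and 16.1 CPM, and Loxl3 at -0.12 (SE 0.27, adjusted p = 0.840), with medians of 43.1 and 39.8 CPM. Loxl3 shares 11.6% of its exon bases with Htra2, so part of its count could belong to that gene.

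Loxl4 had the lowest estimate of all tested members. It stood at 1.94, 3.60, 3.66, 4.36, 23.8 and 24.2 CPM in Bad_WT 1 to 6 and at 3.63, 4.13, 3.26, 1.29, 0.635 and 1.38 CPM in Bad3SA 1 to 6. Apart from Bad_WT 5 and 6, the Bad_WT tumours lay within or just above the Bad3SA range. Its log2 fold change, -2.10, had an SE of 0.69 (edgeR adjusted p = 0.176), and its adjusted p ranged from 0.135 to 0.338 when each tumour was left out in turn. DESeq2 called Loxl4 (adjusted p = 0.0245), as does the authors' deposited table (0.0287), and limma voom did not (-0.83, adjusted p = 0.497). Without Bad_WT 5 and 6 the estimate was -0.51 (SE 0.49, edgeR adjusted p = 0.659). With age in the model the estimate was -1.06 (SE 0.91, adjusted p = 0.888). Bad_WT 5 and 6 were thus the highest tumours for Col4a1, Col9a1, Col9a2, Col18a1 and Loxl4, members of 4 structural classes.

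The genes that modify, fold and trim collagen chains, 27 of 28 tested, had 24 negative and 3 positive estimates, with a median log2 fold change of -0.26 against 0.00 for all genes, and 1 call. Of all genes, 50.45% had a positive estimate, 1.38% were called in either direction and 0.76% were called lower in Bad3SA. Colgalt1, which adds galactose to hydroxylysines of collagen, was lower in Bad3SA. Its CPM ran from 164 to 240 in Bad_WT (median 194) and from 106 to 152 in Bad3SA (median 131). The groups did not overlap, a property of 2.23% of all genes. The estimate was -0.59 (SE 0.12, edgeR adjusted p = 0.0230), 6 of the 12 fits that left out 1 tumour kept the call (0.0245 to 0.0639), and the model with age did not (-0.51, adjusted p = 0.259). Adamts2, a protease that removes the amino-terminal propeptide of procollagen, had medians of 75.9 CPM in Bad_WT and 49.2 in Bad3SA, at -0.74 (SE 0.22, adjusted p = 0.138), and DESeq2 called it (0.0487).

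The collagen receptors, 10 of 11 tested, had 8 negative and 2 positive estimates, a median of -0.14 and no call. No receptor reached an unadjusted p under 0.05. Itga1, the integrin alpha chain that binds type IV collagen, was at -0.36 (SE 0.20, edgeR adjusted p = 0.385), and Itga11, the fibroblast integrin alpha chain for fibrillar collagen, at 0.54 (SE 0.41, adjusted p = 0.509). The proteoglycans and glycoproteins that shape collagen fibrils and elastic fibres, 26 of 27 tested, were split 15 to 11 with a median of 0.08, and no gene of the list passed. Tnxb, a tenascin that binds collagen fibrils, had a median of 1.51 CPM in Bad_WT (1.08 to 17.6) and 11.5 in Bad3SA (0.988 to 34.6), at 1.73 (SE 0.84, adjusted p = 0.327). Bad_WT 4, with the most muscle marker RNA, supplied the top Bad_WT value, and without it Tnxb was at 3.11 and passed (adjusted p = 0.0424). It passed in none of the other 11 fits with 1 tumour left out, which ran down to 1.26 (without Bad3SA 2), and with age in the model it was at -0.12 (SE 1.09). Fbln2, a basement membrane and elastic fibre glycoprotein, was at -0.77 (SE 0.37, adjusted p = 0.330), with its highest values, 392 and 445 CPM, in Bad_WT 5 and 6.

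The 8 pairs of genes examined kept close step across tumours. No other pair of members was tested, so close step is not shown to be particular to chains that assemble together. Over 12 tumours, on log2(CPM + 0.5), Col6a1 and Col6a2 correlated at r = 0.972 (Spearman rho 0.972), Col4a1 and Col4a2 at 0.955 (rho 0.916), and Col1a1 and Col1a2 at 0.937 (rho 0.909). The permutation p for each r was 1e-05, the smallest that 100000 resamples can give, and 2.67e-05 after adjustment over 8 pairs. Loxl1 and Lox correlated at 0.908 (rho 0.853, adjusted permutation p of r = 0.00014, of rho 0.00125), Lox and Col1a1 at 0.903 (rho 0.846, 0.000176 and 0.00143), Col5a1 and Col5a2 at 0.866 (rho 0.811, 0.000411 and 0.0025), Col3a1 and Col1a1 at 0.857 (rho 0.930, 0.000411 and 0.000133), and Col6a3 and Col6a1 at 0.789 (rho 0.804, 0.00218 and 0.00254). Leaving out the 2 tumours farthest from the median of the first gene moved r to between 0.684 (Lox and Col1a1) and 0.978 (Col4a1 and Col4a2). Within a genotype, r ran from 0.802 to 0.993 in Bad_WT and from 0.809 to 0.981 in Bad3SA, and only Col5a1 and Col5a2 in Bad3SA missed an exact p of 0.05 (r = 0.809, exact permutation p = 0.0667, n = 6). Genes counted in the same libraries share their scaling. The pairs of types I, IV, V and VI were chosen as chains of the same molecule. Col3a1 with Col1a1 share fibrils, Lox with Col1a1 are an enzyme and its substrate, and Loxl1 with Lox are separate enzymes.

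The proportion between the genes of these pairs inside a tumour did not differ detectably between genotypes for any of 8 ratios (exact two-sided permutation over all splits of the tumours, smallest possible p 0.00216). These are ratios of CPM, with no correction for length. The ratio with the smallest p was Col4a1 to Col4a2, with a mean log2 of 0.88 ± 0.18 in Bad_WT and 0.71 ± 0.12 in Bad3SA (SD, n = 6 each), which differ by -0.18 (exact permutation p = 0.0736, adjusted 0.589). Col1a1 to Col1a2 averaged -0.32 ± 0.22 in Bad_WT and -0.17 ± 0.56 in Bad3SA (exact permutation p = 0.587, n = 6 each). Bad3SA 1 had a linear ratio of Col1a1 to Col1a2 of 0.426, where the other 11 tumours had 0.617 to 1.25. Lox to Col1a1 was lower by 0.35 on the log2 scale in Bad3SA and did not pass (exact permutation p = 0.266, n = 6 each). Without Bad3SA 1 these differences were 0.36 and -0.57, with unadjusted exact permutation p values of 0.0281 and 0.0216. Col4a1 to Col4a2 also reached an unadjusted exact permutation p under 0.05 without Bad_WT 2 (0.0390), Bad_WT 4 (0.0346) or Bad3SA 6 (0.0476). For the remaining 5 ratios the differences ran from -0.03 to 0.35, with exact permutation p values from 0.327 to 0.946.

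**Figure D4:**
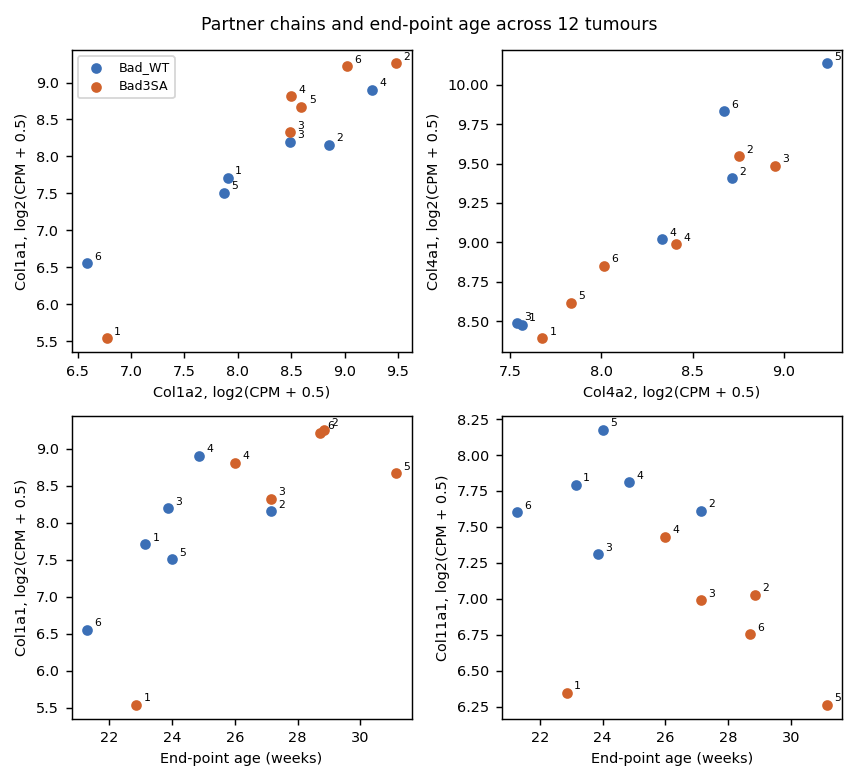
log2(CPM + 0.5) of Col1a1 against Col1a2 and of Col4a1 against Col4a2 (top), and of Col1a1 and Col11a1 against end-point age in weeks (bottom), in 6 Bad_WT (blue) and 6 Bad3SA (orange) tumours numbered as in the titles. Partner chains lie along a line (r = 0.937 and 0.955). Over the 12 tumours Col1a1 is higher in older mice (r = 0.729), a relation that missed the threshold within each genotype. Bad3SA 1 combines the lowest Col1a1 with the second youngest end point.

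Over the 12 tumours of both genotypes, Col1a1 RNA correlated with the fibroblast markers and with the end-point age of the mouse. The relation with age did not pass within either genotype. For Col1a2, the other type I chain, these correlations were not computed. The mean log2 level of the 11 tested fibroblast markers outside the collagens (of 12 fixed in the list) correlated with Col1a1 at r = 0.836 (rho 0.839, adjusted permutation p 0.00684 and 0.0145 over 12 relations). The value of r was 0.779 without 2 tumours, 0.960 within Bad_WT and 0.825 within Bad3SA. By rank the relation was weaker within Bad3SA, with a rho of 0.543 against 0.943 within Bad_WT (n = 6 each). These markers summed to 75.4 to 589 CPM in Bad_WT and 110 to 581 CPM in Bad3SA. Tcf21 was at or near 0 in every tumour, and S100a4 and Twist2 were below 0.3 CPM on average. End-point age correlated with Col1a1 at r = 0.729 (rho 0.778, adjusted permutation p 0.0356 and 0.023), and at 0.731 without the 2 tumours of most extreme age. Within a genotype the relation had the same sign but missed the threshold (r = 0.712 in Bad_WT, exact permutation p = 0.107, and 0.794 in Bad3SA, 0.0653, n = 6 each). For Col4a1, Col9a1 and Col11a1 no relation with fibroblast markers, luminal markers or age passed, nor did that of Col1a1 with luminal markers over the 12 tumours (smallest adjusted p of r 0.343). With luminal markers, Col9a1 had r = -0.827 within Bad_WT (exact permutation p = 0.0222) and 0.361 within Bad3SA (0.487), and Col1a1 had 0.540 (0.267) and -0.768 (0.0417), with n = 6 each and these p values not adjusted. Col11a1, the called chain, had r = -0.52 with age over all tumours and 0.02 and -0.10 within Bad_WT and Bad3SA.

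The Bad3SA mice were older on average, so genotype and age can be separated only as far as their ages overlap. With age as a covariate, the median log2 fold change of the 46 members went from 0.14 to -0.43, while that of all genes went from 0.00 to -0.01, and the count of positive estimates went from 26 to 12. The sign changed for 16 of the 46 members, against 21.5% of all genes. Col1a1 went from 0.66 to -0.62 (SE 0.54), Col1a2 to -0.77 (SE 0.39), Col3a1 to -0.61 (SE 0.55), Lox to -0.92 (SE 0.37) and Loxl1 to -0.95 (SE 0.56). No member passed in that model, in which 0.405% of all genes were called. Chains with negative estimates in both models included Col11a1, Col13a1, Col23a1, Col8a1, Col9a2 and Col4a4.

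**Figure D5:**
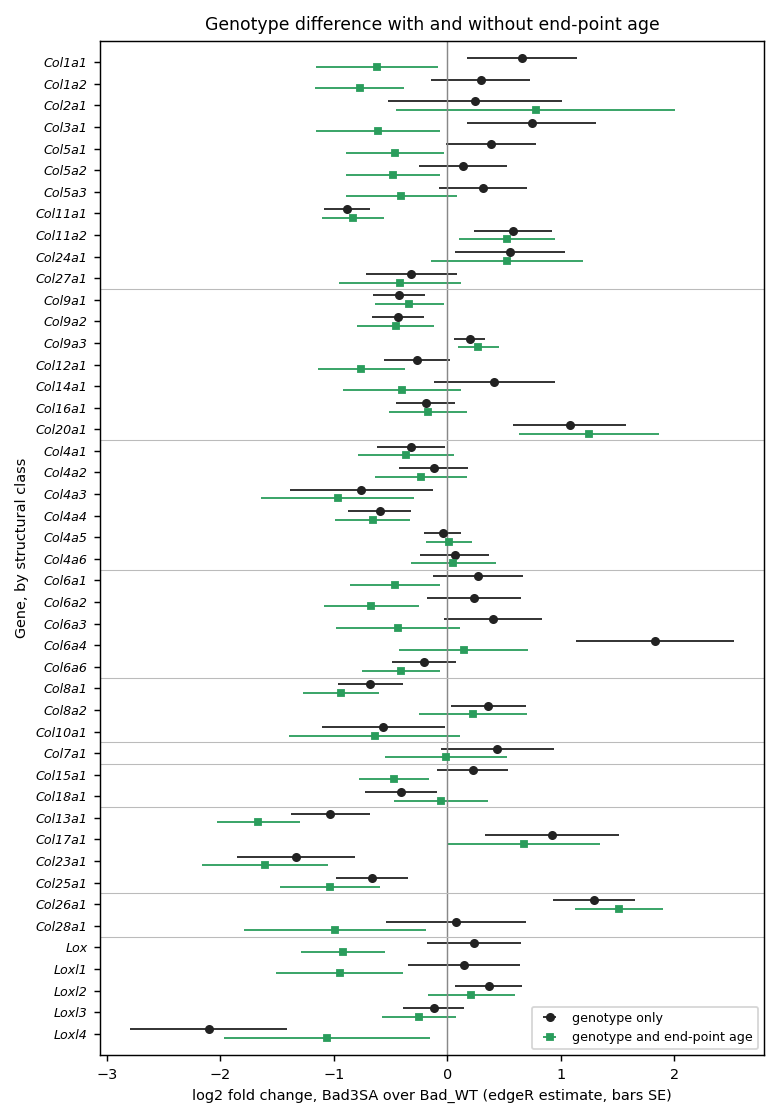
log2 fold change of Bad3SA over Bad_WT for the 46 tested genes, from the model with genotype only (black circles) and with genotype and end-point age (green squares), with bars for 1 SE and genes grouped by class. Of the 46 estimates, 26 are positive without age and 12 with it, and the type I, III and V chains, Col6a1, Col6a2, Col6a3 and Lox move across 0 while Col11a1 stays below it.

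The slope on age in the same model, at a fixed genotype, was positive for 36 of the 46 members, against 51.6% of all genes, with a median of 0.08 log2 units per week against 0.00 for all genes. No gene in the table passed for age after adjustment, and the smallest adjusted p of a member was 0.583. An unadjusted p under 0.05 was reached by 13 members and by 8.44% of all genes. The slope was 0.31 log2 units per week for Lox (SE 0.072), 0.32 for Col1a2 (SE 0.080), 0.35 for Col1a1 (SE 0.11) and 0.40 for Col3a1 (SE 0.12), none of which passed the adjusted test. By class, 5 of 11 fibrillar chains, 3 of 5 beaded filament chains and 0 of 6 basement membrane chains reached the unadjusted threshold. Col6a4, 1 of these 3 beaded filament chains, had its top value in Bad3SA 5, the oldest mouse at 31.1 weeks (6.59 CPM, next Bad3SA tumour 0.974). Among the fibril regulators 23 of 26 slopes were positive and 13 under the unadjusted threshold, and among the fibroblast markers 10 of 11 were positive and 8 under it, with a median of 0.29 log2 units per week. Dcn, Lum and Dpt are counted in both of these lists. The adipocyte markers had a steeper median, 0.64 per week, with 6 of 6 slopes positive and 5 under the unadjusted threshold. With age in the model, the sign of the genotype estimate turned for all 6. It also turned for 8 of the 11 tested fibroblast markers and 16 of the 26 tested fibril regulators, against 21.5% of all genes. Bad3SA 5, the oldest mouse, also had the highest sum of adipocyte markers (326 CPM, against 2.83 to 91.9 in the other tumours). No slope was fitted without this tumour. Slopes were also positive for 5 of 5 macrophage markers (1 under the threshold, median 0.09) and 5 of 5 T cell markers (2 under it, median 0.15). The part of the number of fibroblasts, adipocytes or immune cells in the collagen slopes was not tested.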

How the data were processed

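Polyadenylated RNA of 12 breast tumours was sequenced as paired 100 bp reads, per the labels. The deposited table holds unnormalised counts of reads per gene in whole numbers. Build GRCm38 and the tools STAR 2.7.9a, fastp 0.23.1 and DESeq2 come from the submitters' processing notes. The counting step, its annotation and its strand setting were not given in the sources used here. Reads of genes with shared exons therefore cannot be assigned. The authors' deposited comparison gives a log2 fold change and an adjusted p-value per gene, per the file headers. It was compared with the counts to settle its direction (rho -0.997 with the edgeR estimates over 18019 genes), and is used only where named.

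Genes were filtered with filterByExpr, scaled by TMM and tested for genotype with the robust quasi-likelihood test of edgeR 4.0.16 (R 4.3.3), with Benjamini-Hochberg adjustment over all 18019 genes and a threshold of 0.05. The SE was taken as the size of the log2 fold change over the root of the F statistic. Positive values are higher in Bad3SA. CPM are TMM-normalised, and ratios and correlations use log2(CPM + 0.5). Correlations used 100000 resamples and, within 6 tumours, exact permutation. Lengths and positions are exon unions of GENCODE release 21 (GRCm38). Promoter windows are those of RefSeq (GRCm38.p6).

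Alternatives were DESeq2 1.42.0 (test and size factors), limma 3.58.1 voom with quality weights, other filters, a non-robust dispersion, end-point age, a block for the title number, and leaving out tumours 1 at a time. Age slopes, the relations with markers and age, and the fits without 2 tumours were added after seeing the data. The fit and the permutation test were tested on simulated data. Named members are those that passed, the 2 with the smallest p and the most abundant per length of each class, the main chains of types I, III, IV and VI, and the lysyl oxidases. From the pathway lists, genes that passed and the 2 with the smallest p in each list are named. The members, lists and rules were chosen with earlier results of these data known. Depth ran from 58096172 to 83296370 counts, and p-values rest on 6 mice per genotype.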

Additional observations from a re-analysis of the deposited data

Results flagged for a closer look

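Within a genotype, 1 tumour lay far from the other 5 in 8 of the 72 combinations of gene and genotype examined on the log2 scale. The cut-off used marks about 1 in 20 independent samples by chance. The combinations reuse the same 12 tumours, so 8 of 72 cannot be set against that rate. Bad3SA 1 was far below its group for Col1a1 (46.0 CPM, next tumour 320), Col1a2 (109 CPM, next 359), Col6a3 (6.90 CPM, next 35.4) and the basement membrane glycoprotein gene Fbln2 (52.8 CPM, next 136). This tumour had a fibroblast marker sum of 110 CPM, the lowest of its genotype, and a luminal marker sum of 6924 CPM, the highest of all 12. Bad_WT 4 was far above its group for Col6a3 (67.7 CPM, next 28.4) and Tnxb (17.6 CPM, next 3.04), and it had the highest skeletal muscle (1070 CPM) and fibroblast (589 CPM) marker sums. Bad3SA 5 was far above its group for Col6a4 (6.59 CPM, next 0.974), with the highest adipocyte marker sum (326 CPM). Bad_WT 6 was far below its group for Col8a1 (28.3 CPM, next 64.6), with the lowest fibroblast marker sum of all (75.4 CPM). The part of these tissues in the values was not tested.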

How the results depend on the processing

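Across all genes, 249 were called in the model as reported, against 863 with DESeq2, 579 with limma voom, 163 with a filter of at least 1 CPM in 6 tumours, 73 with age in the model and 147 to 315 with 1 tumour left out. Among the members, 1 was called as reported, 3 with DESeq2, 2 with limma voom, 0 with DESeq2 size factors (Col11a1 adjusted p = 0.0555), the 1 CPM filter or age, and 0 to 1 with 1 tumour left out. In the pathway lists the count was 1 as reported, 2 with DESeq2, 0 with age and 0 to 2 with 1 tumour left out. Leaving out both Bad_WT 5 and 6, or both Bad_WT 6 and Bad3SA 1, chosen after seeing the data, left 0 members and 0 pathway genes called, the latter with 150 calls over all genes. Dropping the filter or the robust dispersion left 1 member called.

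Tumours with the same title number did not deviate together, with correlations from -0.28 to 0.30, and the number 6 alone had its own number as best partner, so the numbers were not taken as pairs. With the replicate block 105 genes were called, with 0 members and 0 pathway genes among them. The median log2 fold change of the members was 0.09 with the block, and the ratios gave no p under 0.05.

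With age in the model the sign turned for Col1a1 (-0.62), Col1a2 (-0.77), Col3a1 (-0.61), Col6a1 (-0.46), Col6a2 (-0.67), Col6a3 (-0.43), Col7a1 (-0.012), Col15a1 (-0.47), Col28a1 (-0.99), Lox (-0.92), Loxl1 (-0.95), Itga11 (-0.21) and Tnxb (-0.12). With limma voom it turned for Col4a1 (0.029), Col4a2 (0.23), Col18a1 (0.11), Lox (-0.0125) and Loxl3 (0.10). Without Bad_WT 5 and 6 it turned for Col1a2 (-0.034), Col4a1 (0.14), Col4a2 (0.23), Col6a2 (-0.048), Col18a1 (0.10), Col28a1 (-0.33) and Loxl1 (-0.21), and without Bad_WT 6 and Bad3SA 1 for Col4a2 (0.027). With 1 tumour left out, estimates ran from -0.23 to 0.90 for Col28a1, -0.26 to 0.094 for Col4a2, -0.015 to 0.58 for Col6a1, -0.078 to 0.54 for Col6a2, -0.099 to 0.44 for Lox, -0.36 to 0.55 for Loxl1 and -0.24 to 0.025 for Loxl3. None of these genes passed in the fit in which its sign turned, and the cause of the turns was not tested.

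Differences in log2 ratio with 1 tumour left out ran from 0.051 to 0.36 for Col1a1 to Col1a2, -0.22 to -0.12 for Col4a1 to Col4a2, -0.57 to -0.18 for Lox to Col1a1, -0.20 to 0.19 for Col6a3 to Col6a1 and -0.20 to 0.070 for Loxl1 to Lox. The difference in medians of Col6a3 to Col6a1 was 0.18. The correlation of Col5a1 and Col5a2 was 0.809 in Bad3SA alone, where 6 tumours limit the test. Depth limits the scarcest members, such as Col26a1 with 17 to 111 counts per tumour.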
